A study of Arabidopsis thaliana with 12 samples.

Results

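The genes described here are 10 jacalin-related lectin genes of Arabidopsis thaliana that lie close together on chromosome 1: AT1G52000, AT1G52030 (MBP2), AT1G52040 (MBP1), AT1G52050, AT1G52060, AT1G52070, AT1G52100, AT1G52110, AT1G52120 and AT1G52130. They were chosen by gene identifier, and all 10 were found in both count tables, among 21981 entries in the first experiment and 27612 in the second. The cluster was picked because large ratios of some of its genes in the first experiment were already known, so its values there are given as a description and carry no test. RNA sequencing counts came from whole seedlings 10 days after germination, in 12 libraries. The first experiment held 1 library each of wild type and of the cerk1 mutant (cerk1-/-), given sterile water (WT_mock, cerk1_mock) or 100 nM flg22 (WT_flg22, cerk1_flg22). The title of the cerk1_flg22 library says cerk1 while its genotype label says cerk2-/-, and it was taken as cerk1 from the title. The second experiment held 2 libraries each of 4 untreated lines, all in the cerk1 mutant and all carrying a FLAG-tagged transgene driven by the CERK1 promoter. The transgene was CERK1 without a named mutation in CERK1_WT, and CERK1_3A, CERK1_3D or CERK1_3E in the other lines. The labels do not say how many transformants stand behind a line, so transgene and line cannot be told apart. Nor do they state that replicate libraries were grown separately. The p-values below therefore reflect the spread between the libraries at hand, which may be technical.

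Jacalin-related lectins are plant proteins built from one or more jacalin domains, which bind sugars, many of them mannose. In Brassicaceae some members associate with myrosinases, the thioglucosidases that release toxic products from glucosinolates, and others join the complex around the beta-glucosidase PYK10 that forms when root tissue is damaged. CERK1 is a LysM receptor kinase required for the response to chitin, and flg22 is a peptide of bacterial flagellin perceived by the receptor kinase FLS2. The comparisons addressed how seedlings with and without CERK1 respond to flg22, and how the untreated transcriptome differs between forms of CERK1.

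Library totals ran from 18159354 to 22663236 counts in the first experiment and from 36013439 to 41288819 in the lines. Levels are given as CPM, counts relative to the library size, after TMM scaling within each table. The CERK1 transcript stood at 24.9 and 273 CPM in WT_mock and WT_flg22, and 9.7 and 119 in cerk1_mock and cerk1_flg22, so it was lower in cerk1 under either treatment but was not absent, and it ranged from 52.5 to 129 CPM in the lines. FRK1, a receptor-like kinase gene used as a flg22 marker, had 3 and 1740 counts in WT_mock and WT_flg22, and 12 and 2782 in cerk1_mock and cerk1_flg22. The material was checked against marker lists: shoot photosynthesis genes summed to between 48700 and 68900 CPM over all 12 libraries, and no root hair marker was at 0 in any of them. The summed root hair markers differed widely, from 13.4 CPM in cerk1_mock to 129 CPM in WT_mock.

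In the TAIR10.1 annotation all 10 genes are protein-coding, lie on the minus strand and fall within 69702 bases. In chromosomal order the first group is AT1G52000 (chr1:19333088-19336135), MBP2 (chr1:19345871-19349088) and MBP1 (chr1:19350314-19352791). It is followed by AT1G52050 (chr1:19354919-19356901), AT1G52060 (chr1:19358800-19360822) and AT1G52070 (chr1:19364809-19366925), which are separated by 1898 and 3986 bases. AT1G52100 (chr1:19383078-19385602), AT1G52110 (chr1:19386709-19389740), AT1G52120 (chr1:19396081-19398244) and AT1G52130 (chr1:19400510-19402789) make up the far end. MBP1 and MBP2 are annotated as myrosinase-binding proteins 1 and 2, and the other members as mannose-binding lectin superfamily proteins. Most members have 4 exons, AT1G52130 has 5 and AT1G52110 has 7. Among the 45 pairs, identity of the coding sequences ran from 55.8% to 85.8%. The highest value was that of AT1G52060 with AT1G52070, followed by 83.6% for MBP2 with MBP1. AT1G52050 was 76.8% identical to AT1G52060 and 78.3% to AT1G52070. Identity of this order can split reads between genes, and the authors' handling of reads with several matches is not given in the sources used here. Of all windows of 50 bases in the transcripts, 1.41% in MBP1, 0.889% in MBP2, 0.306% in AT1G52060 and 0.3% in AT1G52070 also occurred elsewhere in the genome, and none did in the other members. No window of 100 bases did so in any member.

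The 3 members with the largest ratios, AT1G52050, AT1G52060 and AT1G52070, are shown by the 300 bases before their annotated starts, to set genes with like levels beside each other. The sequences are RefSeq's, TAIR10.1, from the minus strand, at chr1:19356902-19357201, chr1:19360823-19361122 and chr1:19366926-19367225 in that order. Capitals mark 4 short motifs on either strand: the W-box core TTGAC, bound by WRKY factors, the G-box CACGTG, the GCC-box GCCGCC and the as-1 core TGACG. The first and the last of these can overlap by 4 bases.
AT1G52050: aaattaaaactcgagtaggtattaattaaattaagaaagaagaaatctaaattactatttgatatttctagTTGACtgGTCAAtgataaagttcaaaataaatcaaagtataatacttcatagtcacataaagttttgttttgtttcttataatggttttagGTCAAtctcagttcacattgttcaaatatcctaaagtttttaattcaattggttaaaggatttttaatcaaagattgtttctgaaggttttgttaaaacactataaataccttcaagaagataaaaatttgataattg
AT1G52060: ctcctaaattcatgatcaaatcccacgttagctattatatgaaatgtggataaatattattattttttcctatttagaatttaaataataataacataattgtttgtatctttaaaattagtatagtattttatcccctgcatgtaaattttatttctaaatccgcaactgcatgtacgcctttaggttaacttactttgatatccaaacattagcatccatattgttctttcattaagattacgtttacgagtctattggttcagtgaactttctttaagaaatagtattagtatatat
AT1G52070: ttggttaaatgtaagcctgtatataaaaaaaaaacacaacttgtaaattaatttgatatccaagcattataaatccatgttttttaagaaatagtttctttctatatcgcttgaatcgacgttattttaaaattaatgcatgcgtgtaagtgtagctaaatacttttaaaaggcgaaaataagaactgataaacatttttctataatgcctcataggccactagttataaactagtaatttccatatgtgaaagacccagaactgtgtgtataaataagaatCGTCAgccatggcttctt
AT1G52050 had the W-box core 3 times, starting 229, 222 and 138 bases before the start. AT1G52070 had the as-1 core once, 18 bases before it, and AT1G52060 had none of the motifs in this window. Thus no motif searched was shared by all of these promoters. Over 27443 promoters of the same length, 50.4% held TTGAC, 7.09% CACGTG, 2.26% GCCGCC and 21.3% TGACG, and of the 10 members 4, 1, 0 and 2 did so. The promoters of these 3 genes were 52.3% to 55.0% identical, within the 47.7% to 57.7% found over all pairs of members, whose median was 53.3%.

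AT1G52050, AT1G52060 and AT1G52070 were high in WT_mock, low in WT_flg22, lowest in cerk1_mock and intermediate in cerk1_flg22. The direction with flg22 was therefore opposite in the 2 genotypes. AT1G52070 had 1043 and 59 counts in WT_mock and WT_flg22, and 32 and 545 in cerk1_mock and cerk1_flg22, or 52.6, 2.95, 1.61 and 27.4 CPM. Ratios of single genes below are ratios of scaled counts with a 95% exact binomial interval, which covers counting error only. AT1G52070 was 17.8-fold lower in WT_flg22 than in WT_mock (13.7 to 23.5) and 17.1-fold higher in cerk1_flg22 than in cerk1_mock (11.9 to 25.2). Between the genotypes it was 32.7-fold lower in cerk1_mock than in WT_mock (23.0 to 48.1) and 9.28-fold higher in cerk1_flg22 than in WT_flg22 (7.09 to 12.4). In bulk seedlings, fewer cells of a type and less RNA per cell cannot be told apart. With 1 library per combination these values have no replicate check, and the 4 comparisons share libraries, since each library enters 2 of them.

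AT1G52060, the closest relative of AT1G52070 by sequence, had 428 and 30 counts in WT_mock and WT_flg22, and 1 and 208 in cerk1_mock and cerk1_flg22, or 21.6, 1.5, 0.0503 and 10.5 CPM. The order of the 4 libraries was that of AT1G52070. In wild type it was 14.4-fold lower with flg22 (9.91 to 21.6), and it was 6.97-fold higher in cerk1_flg22 than in WT_flg22 (4.74 to 10.6). Both ratios against cerk1_mock rest on a single count there. The level was 208-fold higher in cerk1_flg22 (37.0 to 8270) and 429-fold higher in WT_mock (76.6 to 17000).

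AT1G52050 had 243 and 36 counts in WT_mock and WT_flg22, and 0 and 100 in cerk1_mock and cerk1_flg22, or 12.3, 1.8, 0 and 5.03 CPM. Its order was the same again, at lower levels. In wild type it was 6.79-fold lower with flg22 (4.77 to 9.93), and it was 2.79-fold higher in cerk1_flg22 than in WT_flg22 (1.89 to 4.21). Against a floor of 3 counts in cerk1_mock, it was at least 33.4-fold higher in cerk1_flg22 and at least 81.3-fold higher in WT_mock. Summed over the 3 genes, the level was 86.4 and 6.26 CPM in WT_mock and WT_flg22, and 1.66 and 42.9 in cerk1_mock and cerk1_flg22.

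**Figure D1:**
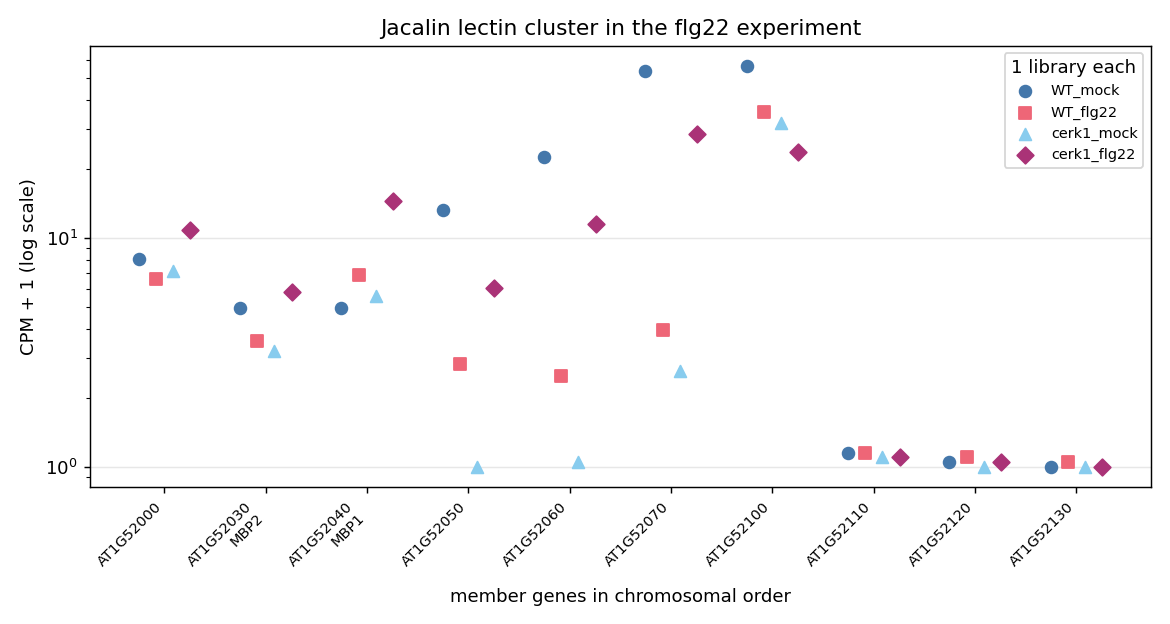
Level of each member (CPM + 1, log scale) in the 4 libraries of the flg22 experiment, 1 point per library, with genes in chromosomal order. AT1G52050, AT1G52060 and AT1G52070 spread widest, with WT_mock highest and cerk1_mock lowest, and the last 3 genes lie near the floor.

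The other members that could be measured had smaller ratios. MBP1 had 78 and 117 counts in WT_mock and WT_flg22, and 91 and 269 in cerk1_mock and cerk1_flg22, or 3.93, 5.86, 4.57 and 13.5 CPM. It was highest in cerk1_flg22, and flg22 went with a higher level in both genotypes: 1.49-fold (1.11 to 2.01) without the mutation and 2.96-fold (2.33 to 3.8) in cerk1. MBP2 had 78, 51, 44 and 95 counts in the same order, or 3.93, 2.55, 2.21 and 4.78 CPM. In wild type it was 1.54-fold lower with flg22 (1.07 to 2.24), and it was 2.16-fold higher with flg22 in cerk1 (1.5 to 3.17), the same signs as AT1G52050, AT1G52060 and AT1G52070 but smaller ratios. AT1G52000 had 141, 112, 123 and 194 counts, or 7.11, 5.61, 6.18 and 9.77 CPM. Its ratio in wild type was 1.27-fold lower, with a counting interval of 0.982 to 1.64 that includes no difference, and in cerk1 it was 1.58-fold higher (1.25 to 2.0).

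AT1G52100, beyond the non-member AR791, had a different order. Its counts were 1097 and 689 in WT_mock and WT_flg22, and 610 and 450 in cerk1_mock and cerk1_flg22, or 55.3, 34.5, 30.7 and 22.7 CPM. It was the only one of the 7 members with measurable levels that was lower with flg22 in both genotypes, by 1.6-fold in wild type (1.46 to 1.77) and by 1.35-fold in the mutant (1.2 to 1.53). AT1G52110, AT1G52120 and AT1G52130 had 0 to 3 counts in every library of this experiment. These 3 genes did not reach 1 CPM anywhere, so no ratio is given for them.

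Levels of different members were compared per kilobase of the length stated in the table. In WT_mock AT1G52070 was highest at 43.0 CPM per kilobase, followed by AT1G52100 at 31.2, AT1G52060 at 22.3 and AT1G52050 at 10.7, and AT1G52000, MBP1 and MBP2 lay at 2.87, 2.34 and 1.6. In cerk1_mock the order was different. AT1G52100 led at 17.3 CPM per kilobase, MBP1 stood at 2.72, AT1G52000 at 2.5, AT1G52070 at 1.31, MBP2 at 0.897, AT1G52060 at 0.0519 and AT1G52050 at 0. In WT_flg22 AT1G52100 was again highest at 19.5, with MBP1 next at 3.49 and AT1G52070 at 2.41. In cerk1_flg22 AT1G52070 led at 22.4, with AT1G52100 at 12.8, AT1G52060 at 10.8 and MBP1 at 8.06. The first place was thus held by AT1G52070 in WT_mock and cerk1_flg22 and by AT1G52100 in the other libraries.

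Over all genes, ratios were formed on CPM + 1, which understates the change of low genes, among 18872 genes with at least 1 CPM in some library. Of the 7 members that passed this filter, 3 were at least 4-fold lower in WT_flg22 than in WT_mock, against 0.472% of all genes. In cerk1_flg22 against cerk1_mock 3 were at least 4-fold higher, against 6.82% of all genes. In cerk1_mock against WT_mock 3 were at least 4-fold lower, against 0.54%. In cerk1_flg22 against WT_flg22 2 were at least 4-fold higher, against 0.0901%. The first 3 counts were AT1G52050, AT1G52060 and AT1G52070, and the last was AT1G52060 and AT1G52070. AT1G52050 lay below the threshold between the flg22 libraries, at a log2 ratio of 1.11, where AT1G52060 was just above it at 2.2. Since these contrasts led to the choice of the cluster, nothing is read from these counts. The median log2 ratio of the 7 members was -0.67, 1.38, -0.83 and 1.08 in the 4 comparisons, and that of all genes -0.03, -0.01, 0.0 and -0.01.

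The difference between the responses, the log2 ratio in cerk1 minus that in wild type, was 7.21 for AT1G52070, 6.62 for AT1G52060 and 4.83 for AT1G52050. At 4-fold, 3 members were higher by this measure, against 0.593% of all genes. MBP2 had a difference of 1.32, MBP1 of 0.91, AT1G52000 of 0.88 and AT1G52100 of 0.24. The median of the 7 members was 1.32 and that of all genes -0.01. These values share the same 4 libraries, whose contrasts led to the choice of the cluster. The difference was not tested, since there is 1 library behind each combination.

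Genes in the table on either side of the cluster, and the 1 non-member measured between its ends, did not reach 4-fold in any of these ratios. Of 8 non-member genes and pseudogenes annotated between the ends, only this 1 was in the table. The between-lying gene AR791, annotated as an actin-binding protein, had 89 and 61 counts in WT_mock and WT_flg22, and 89 and 88 in cerk1_mock and cerk1_flg22. The nearest gene past the far end, AT1G52140, annotated as an Avr9/Cf-9 rapidly elicited protein, had 146, 112, 68 and 150 counts. It was 2.15-fold lower in cerk1_mock than in WT_mock (1.6 to 2.92) and 2.21-fold higher with flg22 in cerk1 (1.65 to 2.99). The large ratios thus lay on 3 adjacent members, with smaller ones around them.

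**Figure D2:**
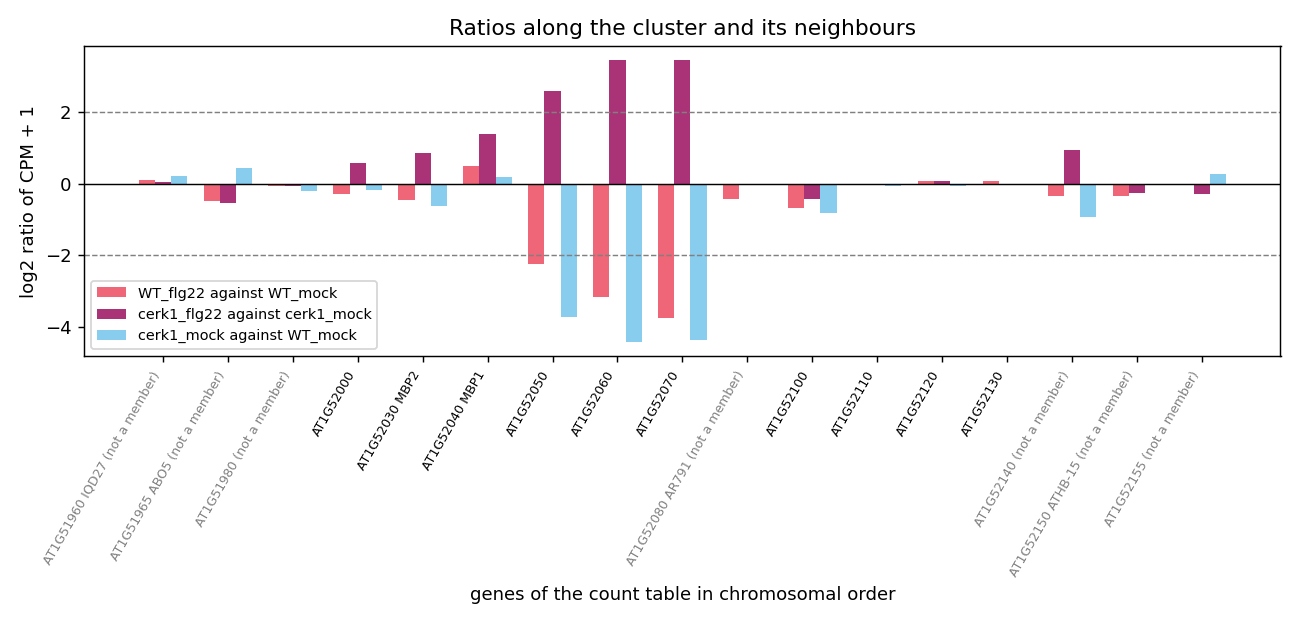
Log2 ratio of CPM + 1 for the members and, in grey, their neighbours in the table, in chromosomal order, for flg22 in wild type, flg22 in cerk1, and cerk1_mock against WT_mock. Bars are single ratios from 1 library each, dashed lines mark 4-fold, and only AT1G52050, AT1G52060 and AT1G52070 pass them.

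Genes with ratios most like those of AT1G52070 were ranked by Euclidean distance over 3 log2 ratios (flg22 in wild type, flg22 in cerk1, and mock between genotypes) from 4 libraries, among 18156 genes with a mean of at least 1 CPM. AT1G52060 ranked first at a distance of 0.59, and AT1G52050 ranked 4 at 1.85. The others among the first 5 are all annotated as late embryogenesis abundant protein-like: AT5G54370 (distance 1.25), AT3G19430 (1.72) and AT5G60530 (2.12). AT5G54370 stood at 30.6, 3.46, 0.653 and 9.16 CPM in WT_mock, WT_flg22, cerk1_mock and cerk1_flg22. MBP2 ranked 552, AT1G52100 1479, AT1G52000 1696 and MBP1 4740. The 3 ratios are among those that led to the choice of the cluster, so the ranks of its members are a description only.

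Outside the cluster, 27 other jacalin-related lectins were in the table and 22 passed the filter. With flg22 in wild type 0 of 22 were 4-fold apart, as 6.76% of all genes were. At 2-fold, 3 were higher and 4 lower, against 13.2% and 5.79% of all genes. AT5G35940 had the lowest ratio, at 9.18 and 2.0 CPM in WT_mock and WT_flg22, and 6.38 and 15.2 in cerk1_mock and cerk1_flg22, so its level was also lower with flg22 in wild type and higher in cerk1. In cerk1, 2 of 22 were higher by 4-fold or more with flg22 (6.82% of all genes), a share near that of all genes, and 6 by 2-fold or more (15.2% of all genes), among them AT1G60130, from 0.201 to 4.73 CPM. In cerk1_mock against WT_mock 7 of 22 were at least 2-fold lower (4.01% of all genes), with a median log2 ratio of -0.67. The largest ratio was that of MLP-300B, at 11.5 and 5.01 CPM in WT_mock and WT_flg22, and 0.302 and 2.37 in cerk1_mock and cerk1_flg22. NSP4, a nitrile specifier protein that redirects glucosinolate breakdown, stood at 24.7, 13.9, 7.29 and 14.5 CPM in the same order.

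Genes of the proteins that such lectins associate with were described by 2 further lists. Of 17 genes of ER bodies and the PYK10 complex, 8 were at least 2-fold lower in cerk1_mock than in WT_mock (4.01% of all genes) and 0 were at least 4-fold lower (0.54% of all genes). Their sum was 7730 and 6860 CPM in WT_mock and WT_flg22, and 3440 and 5250 in cerk1_mock and cerk1_flg22. Several genes stand in this list and in that of the other lectins. BGLU21, a beta-glucosidase related to PYK10, stood at 220, 154, 63.9 and 170 CPM. Of 10 myrosinases and specifiers that passed the filter, 7 were at least 2-fold lower in cerk1_mock (4.01% of all genes), with a median log2 ratio of -1.24 against 0.0 for all genes. BGLU34, of the thioglucosidase group of beta-glucosidases, stood at 26.5, 7.96, 0.0503 and 1.81 CPM. PEN2, an atypical myrosinase of indole glucosinolates, differed from these, at 152 and 2160 CPM in WT_mock and WT_flg22, and 112 and 1380 in cerk1_mock and cerk1_flg22. No test was run on these lists, whose genes rest on the same single libraries.

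Levels of root cell type markers differed between the same libraries, and their part in the values of the cluster was not tested. The 7 root hair markers summed to 129 and 83.7 CPM in WT_mock and WT_flg22, and 13.4 and 61.3 in cerk1_mock and cerk1_flg22. In cerk1_mock against WT_mock 5 of 7 were at least 4-fold lower (0.54% of all genes) and 7 of 7 at least 2-fold lower (4.01%), with a median log2 ratio of -2.28 against 0.0 for all genes. PRP3, a cell wall protein of root hairs, stood at 51.7, 21.5, 2.97 and 9.71 CPM. The markers did not move alike with flg22 in wild type. There 1 of 7 was at least 2-fold higher (13.2% of all genes) and 3 were at least 2-fold lower (5.79%). RHD2 was higher with flg22 in both genotypes. It stood at 13.8, 31.4, 2.66 and 31.9 CPM, so the sums with flg22 rest in part on this gene. In WT_mock and WT_flg22 the summed level of the 3 lectin genes was 86.4 and 6.26 CPM. The 8 endodermis markers summed to 117, 72.8, 64.1 and 66.5 CPM, the 4 cortex and stele markers to 445, 184, 354 and 218 CPM, and the 3 root cap markers to 2.72, 1.2, 0.603 and 0.906 CPM. The 12 shoot photosynthesis genes summed to 57300, 54300, 59300 and 48700 CPM, so their order was not that of the root hair markers. The 5 seed storage genes in the table summed to 0.151 to 1.16 CPM, with 1 to 4 of them at 0.

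The untreated lines gave replicated values. The cluster was picked for ratios in the first experiment, though earlier results of these data were known when it was chosen. By edgeR no member passed the adjusted threshold in any of the 6 pairwise comparisons between lines, and the 2 libraries of a line often differed widely. AT1G52070 stood at 21.3 and 22.7 CPM in the 2 libraries of CERK1_WT, 16.1 and 23.3 in CERK1_3A, 31.6 and 17.5 in CERK1_3D, and 20.8 and 15.9 in CERK1_3E. The ranges of the lines overlapped, apart from CERK1_WT and CERK1_3E. The mean was 22.0 ± 0.942 CPM (SD, n = 2) for CERK1_WT and 19.7 ± 5.13 CPM for CERK1_3A. It was 24.5 ± 9.98 CPM for CERK1_3D and 18.4 ± 3.42 CPM for CERK1_3E. Against CERK1_WT the edgeR log2 fold change was -0.16 in CERK1_3A (95% interval -0.82 to 0.5), 0.16 in CERK1_3D (-0.5 to 0.81) and -0.26 in CERK1_3E (-0.92 to 0.4). These intervals do not reach a 2-fold difference in either direction, and narrower differences could not be resolved.

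AT1G52060 stood at 9.22 and 9.71 CPM in CERK1_WT, 7.53 and 10.9 in CERK1_3A, 14.9 and 7.15 in CERK1_3D, and 12 and 6.3 in CERK1_3E. AT1G52050 stood at 5.32 and 4.54, 3.54 and 4.75, 8.23 and 3.58, and 4.91 and 2.59 CPM. The first library of CERK1_3D was the highest and the second of CERK1_3E the lowest for both genes. For AT1G52060 the log2 fold changes against CERK1_WT lay between -0.05 and 0.22, and for AT1G52050 between -0.39 and 0.26, all with intervals that include 0. Without the first library of CERK1_3D, the log2 fold change in CERK1_3D against CERK1_WT was -0.46 for AT1G52050, -0.4 for AT1G52060 and -0.33 for AT1G52070, so 1 library set its sign.

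**Figure D3:**
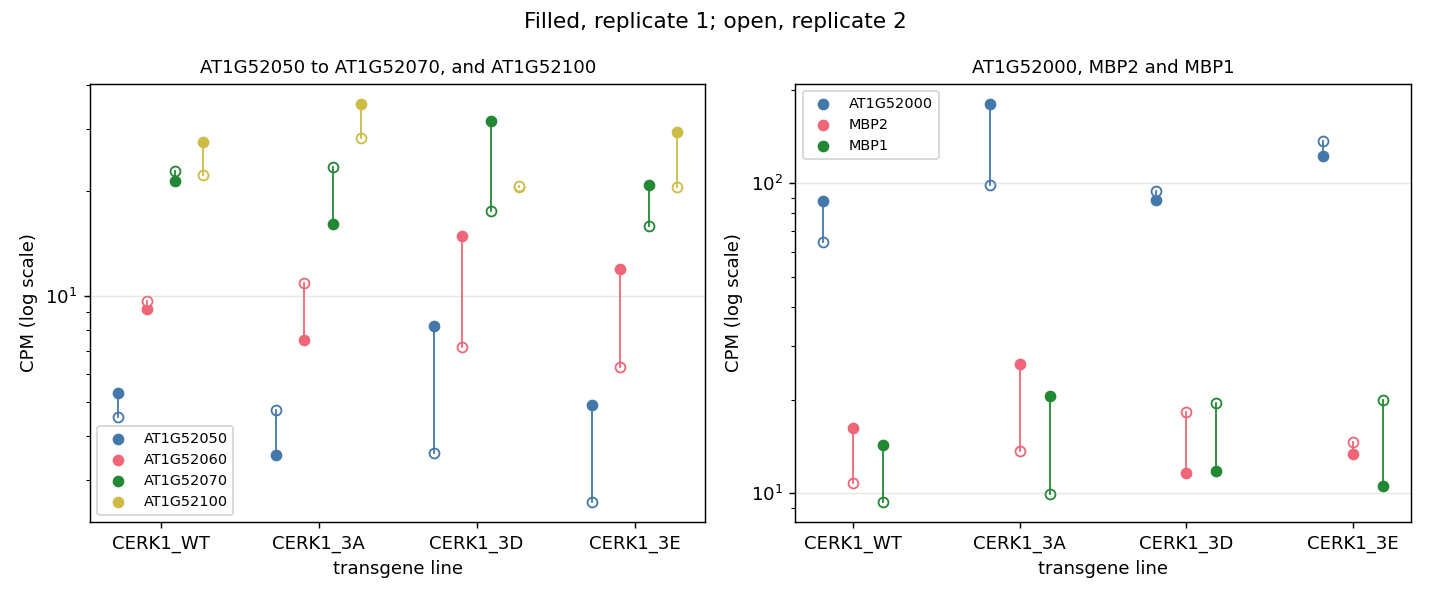
Level (CPM, log scale) in the 2 libraries of each transgene line, filled points for replicate 1 and open points for replicate 2, joined by a line. The left panel shows AT1G52050, AT1G52060, AT1G52070 and AT1G52100 and the right panel AT1G52000, MBP2 and MBP1. The gap between replicates is often as wide as the gap between lines.

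AT1G52000 stood at 87.7 and 64.9 CPM in CERK1_WT, 181 and 98.6 in CERK1_3A, 88.5 and 94.6 in CERK1_3D, and 123 and 137 in CERK1_3E. Both libraries of CERK1_3A, of CERK1_3D and of CERK1_3E lay above both of CERK1_WT, though for CERK1_3D only by 88.5 against 87.7 CPM. The log2 fold change against CERK1_WT was 0.87 in CERK1_3A (SE 0.261, edgeR unadjusted p = 0.0105, adjusted p = 1.0), 0.77 in CERK1_3E (SE 0.261, unadjusted p = 0.0187) and 0.26 in CERK1_3D (interval -0.34 to 0.87). None passed adjustment. DESeq2 gave an adjusted p of 0.0846 in CERK1_3A and 0.185 in CERK1_3E against CERK1_WT, which did not pass either. Without the first library of CERK1_3A, the edgeR log2 fold change in CERK1_3A was 0.37. In DESeq2, the test of any difference among the 4 lines called AT1G52000 with an adjusted p of 0.0264, where 0.555% of all genes were called. The length stated for AT1G52000 in this table is 19341 bases, 6.345 times its annotated span of 3048 bases, whereas the table of the first experiment states 2475. What the entry counts beyond the annotated gene is not given in the sources used here, so the value belongs to the entry as deposited. MBP2, MBP1 and AT1G52100 also have longer stated lengths in the lines (4731, 3421 and 8021 bases) than in the first experiment (2465, 1681 and 1774 bases), and the other 6 members have the same length in both. No level was compared between the tables.

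MBP2 stood at 16.3 and 10.8 CPM in CERK1_WT, 26.2 and 13.7 in CERK1_3A, 11.6 and 18.3 in CERK1_3D, and 13.4 and 14.7 in CERK1_3E. MBP1 stood at 14.3 and 9.36, 20.6 and 9.94, 11.8 and 19.6, and 10.6 and 20.0 CPM. For both genes the ranges of the 4 lines overlapped. The log2 fold changes against CERK1_WT were 0.56 at most for MBP2 and 0.41 at most for MBP1, with intervals that include 0. AT1G52100 stood at 27.5 and 22.1, 35.4 and 28.3, 20.5 and 20.6, and 29.4 and 20.5 CPM. Both libraries of CERK1_3D were below both of CERK1_3A, with a log2 fold change of -0.63 (SE 0.191, edgeR unadjusted p = 0.0109, adjusted p = 0.79). This was the lowest edgeR adjusted p of any member in the 6 comparisons.

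The last 3 members were low in the lines. AT1G52120 had 13 and 7 counts in CERK1_WT, 31 and 29 in CERK1_3A, 19 and 8 in CERK1_3D, and 12 and 31 in CERK1_3E. Its log2 fold change in CERK1_3A against CERK1_WT was 1.68 (SE 0.659, edgeR unadjusted p = 0.0345), which did not pass adjustment. AT1G52130 had 2 to 20 counts per library and passed in no comparison. AT1G52110 had 0 to 10 counts and was too low to be tested.

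Over 21274 genes tested, of which 9 were members, 0 members were called by edgeR in any of the 6 comparisons between lines. The share of all genes called was 0.0047% for CERK1_3A against CERK1_WT, 0.0282% for CERK1_3D against CERK1_WT, 0.0047% for CERK1_3E against CERK1_WT, 0.0235% for CERK1_3D against CERK1_3A, 0.0094% for CERK1_3E against CERK1_3A and 0.0141% for CERK1_3E against CERK1_3D. At an unadjusted p under 0.05, 2 members (AT1G52000 and AT1G52120) passed in the first comparison, where 3.07% of all genes did. In the others the counts were 0 (2.87%), 1 (AT1G52000, 3.37%), 2 (AT1G52000 and AT1G52100, 5.78%), 0 (2.45%) and 0 (4.03%). For any difference among the 4 lines, edgeR called 0 members and 0.0235% of all genes, and 1 member (AT1G52000) was under the unadjusted threshold (3.24%). DESeq2 called 0 members in the 6 comparisons, where it called 0.0658%, 0.122%, 0.183%, 0.362%, 0.136% and 0.197% of all genes in the same order. Of the 28 other jacalin-related lectins tested, edgeR called 0 in each of the 6 comparisons, and 1 to 4 were under the unadjusted threshold.

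**Figure D4:**
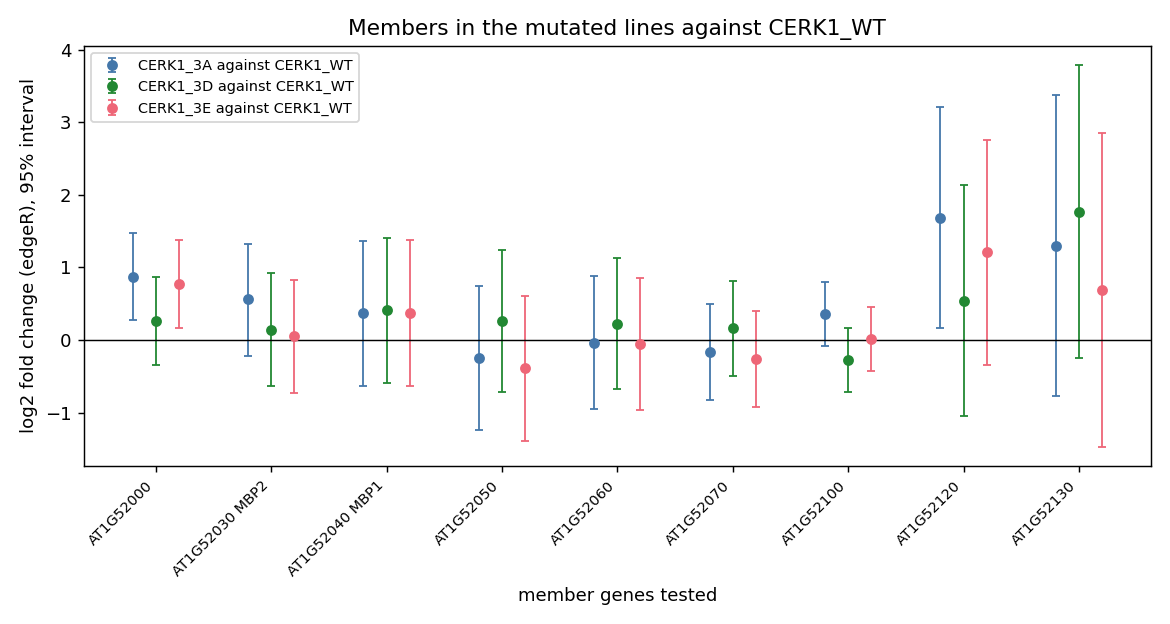
Log2 fold change of the 9 tested members in CERK1_3A, CERK1_3D and CERK1_3E against CERK1_WT (edgeR, 2 libraries per line), with 95% intervals as bars. Most intervals include 0, and those of AT1G52120 and AT1G52130 are widest.

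Across the 8 libraries of the lines, levels of AT1G52050, AT1G52060 and AT1G52070 were correlated by Pearson's r, though their ranks did not pass adjustment, and no pair among AT1G52000, MBP2 and MBP1 passed by either measure. No relation was computed for AT1G52110, AT1G52120 or AT1G52130. Pearson's r of log2 levels was 0.932 for AT1G52050 with AT1G52060 (exact permutation p = 0.00104), 0.943 for AT1G52050 with AT1G52070 (exact permutation p = 0.00179) and 0.924 for AT1G52060 with AT1G52070 (exact permutation p = 0.00206). Each had an adjusted p of 0.0185 over the 27 relations computed. The permutations here and below shuffled all 8 libraries freely, so their p-values ignore that the libraries came from 4 lines. By r with AT1G52070, AT1G52050 ranked 31 and AT1G52060 ranked 60 among 19100 genes, so genes outside the cluster had values as high. Spearman's rho was 0.833, 0.81 and 0.833, with exact permutation p-values of 0.0154, 0.0218 and 0.0154 that became 0.139, 0.147 and 0.139 after adjustment, so the rank measure did not pass. Without the 2 libraries farthest from the median, r was 0.807, 0.845 and 0.8. Correlations of the deviations from the line means were 0.973, 0.927 and 0.953, which sets the 2 libraries of each line against each other. The 2 deviations of a line mirror each other, so each of these values rests on only 4 differences, 1 per line. The replicates differed the same way in 3, 3 and 4 of the 4 lines. The first library of CERK1_3D was the highest for all of these genes. The 2 libraries of CERK1_3D differed by log2 1.01 for AT1G52050, 0.97 for AT1G52060 and 0.82 for AT1G52070, in a line where 1.76% of all genes were at least 2-fold apart.

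MBP2 and MBP1 had an r of 0.784 (exact permutation p = 0.012, adjusted 0.0648), with a rho of 0.833 (exact permutation p = 0.0154, adjusted 0.139), which did not pass after adjustment. Without the 2 farthest libraries r was 0.678. AT1G52000 and MBP2 had an r of 0.726 (exact permutation p = 0.0424, adjusted 0.13), and a rho of 0.524 (exact permutation p = 0.197, adjusted 0.332). This relation rested on the 2 farthest libraries, without which r was -0.0878. MBP1 and AT1G52060 went opposite ways, with an r of -0.791 (exact permutation p = 0.0253, adjusted 0.114) and a rho of -0.69 (exact permutation p = 0.0694, adjusted 0.224), and this did not pass either. In the lines the summed level of AT1G52050, AT1G52060 and AT1G52070 ran from 24.8 to 54.8 CPM and that of AT1G52000, MBP2 and MBP1 from 85.1 to 228 CPM. These sums are not scaled by length, and the stated length of AT1G52000 is far over its annotated span, so they do not rank the groups.

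No relation with root hair markers was computed in the flg22 experiment. In the lines these markers varied with AT1G52070 by Pearson's r, though not by rank after adjustment. Their summed level was 73.5 and 64.4 CPM in CERK1_WT, 44.0 and 54.7 in CERK1_3A, 94.4 and 42.4 in CERK1_3D, and 63.6 and 42.8 in CERK1_3E. The r with AT1G52070 was 0.909 (exact permutation p = 0.0031, adjusted 0.0209), and rho was 0.762 (exact permutation p = 0.0368, adjusted 0.166), which did not pass. Without the 2 farthest libraries r was 0.766, and over deviations from line means it was 0.936. The latter rests on 1 difference per line, and the replicates differed the same way in 3 of the 4 lines. For the endodermis markers r was 0.719 (exact permutation p = 0.0434, adjusted 0.13) and rho 0.571 (exact permutation p = 0.151, adjusted 0.291), with r at 0.394 without the 2 farthest libraries. For the shoot photosynthesis genes r was -0.639 (exact permutation p = 0.103, adjusted 0.199) and rho -0.238 (exact permutation p = 0.582, adjusted 0.683), with r at -0.023 without them. The part of root content in the levels of these lectin genes was not tested.

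**Figure D5:**
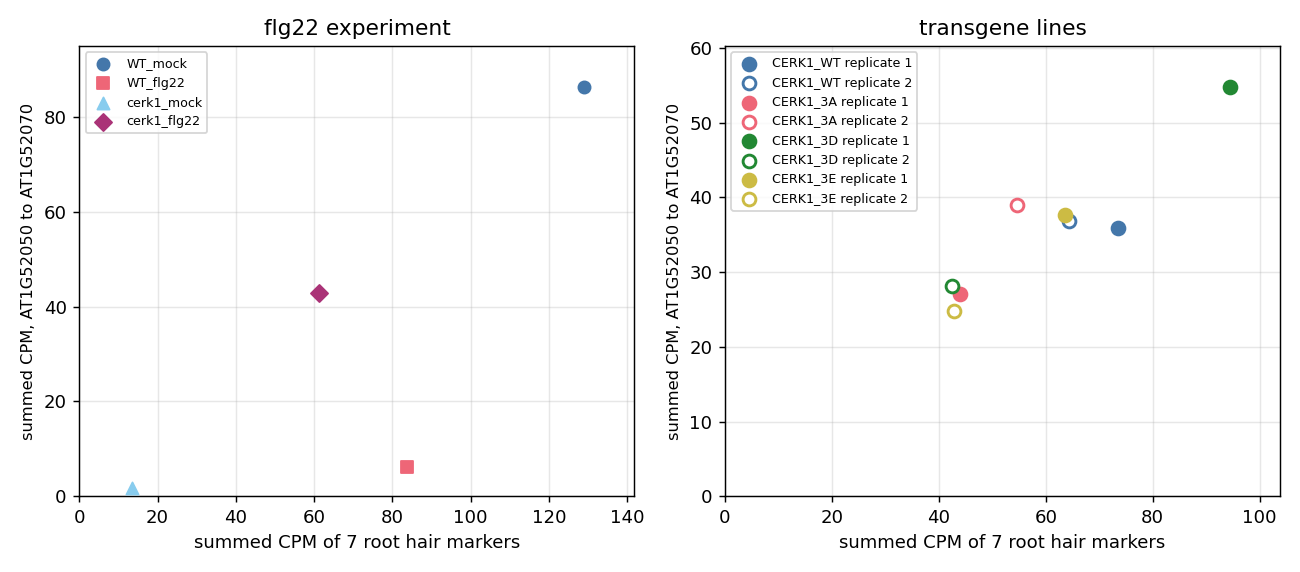
Summed CPM of AT1G52050, AT1G52060 and AT1G52070 against summed CPM of 7 root hair markers, 1 point per library, in the flg22 experiment (left) and the transgene lines (right). In the lines, the first library of CERK1_3D is highest on both axes. In the flg22 experiment WT_flg22 lies low on the vertical axis at 83.7 CPM of root hair markers, a sum that includes RHD2 at 31.4 CPM.

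The genes whose levels in the lines were most like AT1G52070, by Pearson's r over 8 libraries among 19100 genes, were FLS1, a flavonol synthase gene (0.977), ANNAT1, an annexin gene (0.977), the jacalin-related lectin gene MLP-300B (0.977), AT5G35460 (0.973) and AT5G02420 (0.972). MLP-300B stood at 12.9 and 12.6 CPM in CERK1_WT, 8.95 and 13.0 in CERK1_3A, 17.4 and 9.41 in CERK1_3D, and 12.2 and 7.86 in CERK1_3E. AT1G52050 ranked 31 and AT1G52060 ranked 60. Those most like AT1G52000 were AT3G28540 (0.957), GRP-3, a glycine-rich protein gene (0.954), PDIL5-2 (0.954), PID (0.952) and SLK3 (0.949). The points share their libraries and depth, and these values are a description of the ranking.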

How the data were processed

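The authors deposited whole-number read or fragment counts per gene for 12 libraries, in 2 tables with no normalization. Reads were placed on TAIR10, per the submitters' processing notes. The aligner, counter and strand setting are not given in the sources used here. All 12 sample columns were used. Coordinates, sequences and symbols are those of TAIR10.1, and the tables hold no coordinates.

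For the flg22 experiment, TMM-scaled CPM came from edgeR 4.0.16 under R 4.3.3. Genes with at least 1 CPM in 1 library were kept, and ratios used CPM + 1. A ratio against 0 counts used a floor of 3 counts in that library. Intervals and floors cover counting error only, because each combination has 1 library. Reads lacking molecular identifiers may be copies of the same molecule, in which case the intervals are too narrow. The 8 libraries of the lines were fitted together in edgeR (quasi-likelihood, line as the only term, filterByExpr), leaving 4 residual degrees of freedom. Tests were two-sided, with Benjamini-Hochberg adjustment over 21274 genes and a threshold of 0.05. DESeq2 1.42.0 was an alternative. The edgeR fit of the lines was tested on simulated data, for CERK1_3A against CERK1_WT only, and the other steps were not. The 2 libraries of each line differed beyond sampling noise.

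The members and the gene lists were chosen with earlier results of these data known. All 10 members were named, together with their neighbours in the genome, the 5 genes most like AT1G52070 in each experiment and like AT1G52000 in the lines, and the list genes with the largest ratios. The grouping of AT1G52050 with AT1G52060 and AT1G52070 followed from their values.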

Additional observations from a re-analysis of the deposited data

Results flagged for a closer look

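For 3 members the direction with flg22 was opposite in the 2 genotypes. As log2 ratios of CPM + 1, AT1G52050 was at -2.24 in wild type and 2.59 in cerk1, AT1G52060 at -3.17 and 3.45, and AT1G52070 at -3.76 and 3.45. The difference was not tested, since each combination has 1 library. The cerk1_mock library, in which these genes had 0, 1 and 32 counts, is the base of the ratios in cerk1, and its 7 root hair markers summed to 13.4 CPM against 129 CPM in WT_mock. The part of either in the opposite directions was not tested.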

How the results depend on the processing

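In the flg22 experiment 123 of 140 values of single genes under alternatives moved by no more than their counting error, 17 moved by more, and 0 of those at least 4-fold apart changed sign. With 5 in place of 1 added to CPM, fewer members were at least 4-fold apart in each of the 4 comparisons: 1 instead of 3 with flg22 in cerk1, 1 instead of 2 between the flg22 libraries, and 2 instead of 3 both with flg22 in wild type and between the mock libraries, where AT1G52050 was at -1.34 and -1.79. Scaling by library totals moved the median log2 ratio of all genes to -0.27 for flg22 in wild type and -0.17 in cerk1. In the lines edgeR called 0 members in each comparison under every alternative, and DESeq2 called 1, AT1G52000, for any difference among the 4 lines. Since the lowest edgeR adjusted p in the main fit was already 0.79, these counts of 0 say little about stability. Leaving out 1 library in turn changed the direction of 28 of 42 log2 fold changes of members between lines. In CERK1_3A against CERK1_WT the range was, for MBP1 from -0.25 to 0.8, AT1G52060 from -0.33 to 0.2 and AT1G52070 from -0.45 to 0.09. In CERK1_3D against CERK1_WT the range was, for MBP2 from -0.22 to 0.47, MBP1 from -0.01 to 0.75, AT1G52050 from -0.46 to 0.74, AT1G52060 from -0.4 to 0.66 and AT1G52070 from -0.33 to 0.52. In CERK1_3E against CERK1_WT the range was, for MBP2 from -0.21 to 0.37, MBP1 from -0.15 to 0.76, AT1G52060 from -0.58 to 0.34 and AT1G52100 from -0.27 to 0.24. In CERK1_3D against CERK1_3A the range was, for MBP2 from -0.81 to 0.13, MBP1 from -0.39 to 0.66, AT1G52050 from -0.21 to 0.99, AT1G52060 from -0.36 to 0.7 and AT1G52070 from -0.17 to 0.68. In CERK1_3E against CERK1_3A the range was, for AT1G52000 from -0.48 to 0.4, MBP2 from -0.9 to 0.04, MBP1 from -0.52 to 0.62, AT1G52050 from -0.67 to 0.25, AT1G52060 from -0.54 to 0.38 and AT1G52070 from -0.35 to 0.19. In CERK1_3E against CERK1_3D the range was, for MBP2 from -0.38 to 0.28, MBP1 from -0.56 to 0.38, AT1G52050 from -1.18 to 0.07, AT1G52060 from -0.81 to 0.35 and AT1G52070 from -0.78 to 0.07. The other alternatives changed the direction of 0 of these. A line with 1 library left is assumed to vary like the other lines. Under that assumption the lowest adjusted p was 0.228, for AT1G52000 in CERK1_3A against CERK1_WT without the second library of CERK1_3A. Same-numbered replicates of different lines deviated together with correlations over 0.1 in 4 of 6 pairs of lines, and of -0.00134 and 0.00464 in the others, so whether the numbers pair the libraries is not settled and they were not treated as pairs. The replicate block gave 0 members called in each comparison and took AT1G52100 in CERK1_3D against CERK1_3A to an edgeR adjusted p of 0.415. Depth limits AT1G52110, AT1G52120 and AT1G52130, which had 0 to 3 counts per library in the flg22 experiment.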
